A study of Homo sapiens with 4 samples.

Results

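The genes described here are the Sprouty, SPRED and DUSP genes and the ETV transcription factors that act as feedback regulators or read-outs of the ERK pathway, namely SPRY1, SPRY2, SPRY4, SPRED1, SPRED2, DUSP4, DUSP5, DUSP6, ETV4 and ETV5. These 10 genes are among 29123 gene names on the array, and they were chosen by measured values, because SPRY2 gave the lowest ratio of all 27225 genes tested on the arrays that carry the label GALNT3/T6 KO (the GALNT3/T6-labelled arrays). The members were then found by gene name, which gave 14 probes. The values of those arrays that chose the genes are therefore given as a description, with no test, and the test was kept for the GALNT3 KO arrays. The spread used in that test was estimated over all 4 arrays, so the GALNT3/T6-labelled arrays also enter its SE and p-values.

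ERK is the last kinase of a cascade that runs from growth factor receptors through RAS, RAF and MEK. Active ERK switches on genes whose products hold the cascade back. Sprouty and SPRED proteins act upstream, at the level of adaptors, RAS and RAF, whereas the dual-specificity phosphatases (DUSP) remove the activating phosphates from ERK and related kinases. ETV4 and ETV5 belong to the PEA3 group of ETS transcription factors, which are switched on by fibroblast growth factor and ERK signalling, so the RNA of all these genes is often used as a read-out of ERK output.

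The data came from A2780s, a human ovarian adenocarcinoma cell line. RNA of 2 clones with a CRISPR/Cas9 knockout of GALNT3 (GALNT3 KO) and of 2 clones that also received an shRNA against GALNT6 (GALNT3/T6 KO) was labelled with Cy5, and each was hybridised on a 2-colour Agilent whole human genome array with Cy3-labelled RNA of a mock-transfected control A2780s clone (Ctrl). GALNT3 and GALNT6 encode enzymes that start mucin-type O-glycosylation. Each knockout line was a selected single-cell clone, and the GALNT3/T6 KO clones differ from the GALNT3 KO clones also by lentiviral transduction and a further round of puromycin selection, so these cannot be told apart from the loss of GALNT6. No array compared Ctrl with Ctrl, and the sources do not say whether the Ctrl RNA on all 4 arrays was 1 extract. A ratio against 0 thus leaves out the Ctrl's own spread. The study's methods speak of Ctrl clones in the plural, matched to the knockout clones. They do not say whether both groups shared a Ctrl clone, and a difference between Ctrl clones would enter each comparison of the groups. The direction of each ratio rests on the labels, which put Ctrl in Cy3 and the KO clone in Cy5 on each of the 4 arrays and list no swapped pair. The study's methods say that Ctrl carried the reverse colour but do not name the dye of either. All 4 arrays lay on 1 slide, and between 86.9% and 93.8% of spots that are not controls were well above background in a channel.

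The RNA of the targeted genes was read first. The GALNT3 probe gave log2 ratios of 0.13 and 0.24 on the GALNT3 KO arrays, where neither channel was well above background, and of 4.80 and 5.08 on the GALNT3/T6-labelled arrays, where it was well above background in both channels. GALNT6 gave log2 ratios of -0.47 and -0.38 on the GALNT3 KO arrays and of -0.66 and -0.69 on the GALNT3/T6-labelled arrays. The GALNT3 RNA thus went against the label of the second group, which is why that group is called by its label throughout. On the GALNT3 KO arrays Ctrl was not well above background either, so a loss of GALNT3 RNA could not be seen there. The label of the GALNT3 KO group was therefore not checked by this probe. Where this probe lies relative to the edited site was not analysed here.

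Some markers of the cell line and of other cell types also moved with the second group. Over 9 epithelial ovarian carcinoma markers, the summed linear signal of Ctrl ran from 8330 to 9063 on the GALNT3 KO arrays. On the GALNT3/T6-labelled arrays it ran from 34553 to 46863, so that the normalized Ctrl signal differed between the groups' arrays. Whether the Ctrl RNA itself differed was not tested. The sum ran from 9954 to 11455 in the GALNT3 KO channel and from 892049 to 950073 in the GALNT3/T6-labelled channel. Of the 9 markers, 8 were well above background in Ctrl on all 4 arrays. Of the 9, 6 were past 1.5-fold higher on both GALNT3/T6-labelled arrays and none was past 1.5-fold lower on both. The sum there was carried by the keratins KRT18 (log2 ratios of 5.41 and 5.95), KRT19 (4.31 and 5.32) and KRT8 (2.59 and 3.06), while EPCAM gave -0.05 and 1.36 and MUC16 gave 0.11 and 0.00. The sum over 5 fibroblast markers was 2184 to 3458 in Ctrl, 1694 to 1937 in GALNT3 KO and 6619.8 to 12368 in GALNT3/T6 KO. Of these 5, COL1A1 (1.77 and 2.20) and PDGFRB (3.09 and 3.79) were above 0 on the GALNT3/T6-labelled arrays, whereas COL1A2 (-0.26 and -0.37), DCN (-0.26 and -0.47) and LUM (-1.21 and -1.16) were below 0 on both. In the same order of channels, the sum over 5 leukocyte markers was 3323 to 3575, 3626 to 3635 and 4808 to 5745, and that over 3 endothelial markers was 619 to 835, 652 to 891 and 825 to 1142. The T cell marker CD3D was not well above background in Ctrl on any array, and neither was the endothelial marker PECAM1 in either channel. The part of these shifts in the results below was not tested, and in RNA of a whole culture fewer cells of a type and less RNA per cell cannot be told apart.

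The RefSeq promoter table (GRCh38.p14) gave the 10 transcript starts used, of 6 of the 10 genes (SPRY1, SPRY2, SPRY4, SPRED1, SPRED2 and DUSP6). It had none for DUSP5, ETV4 and ETV5. DUSP4 was left out of this search, so whether it has a start there was not tested. The counts of starts and matches below do not cover DUSP4. The stretches below are the 250 bases before the start of the 4 genes with the lowest ratios on the GALNT3/T6-labelled arrays. Where a gene has several starts, the one that lies farthest upstream is shown. They are written 5′ to 3′ on the strand of the gene, and capitals mark matches to the ETS core CCGGAA on either strand. The positions are chr13:80341127-80341376 (minus strand) for SPRY2, chr12:89352502-89352751 (minus strand) for DUSP6, chr4:123396545-123396794 (plus strand) for SPRY1 and chr5:142324248-142324497 (minus strand) for SPRY4.
SPRY2: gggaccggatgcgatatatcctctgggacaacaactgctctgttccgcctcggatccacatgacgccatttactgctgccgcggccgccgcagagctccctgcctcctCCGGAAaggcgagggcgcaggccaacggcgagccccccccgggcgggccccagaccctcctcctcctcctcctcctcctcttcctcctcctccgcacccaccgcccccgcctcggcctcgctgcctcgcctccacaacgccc
DUSP6: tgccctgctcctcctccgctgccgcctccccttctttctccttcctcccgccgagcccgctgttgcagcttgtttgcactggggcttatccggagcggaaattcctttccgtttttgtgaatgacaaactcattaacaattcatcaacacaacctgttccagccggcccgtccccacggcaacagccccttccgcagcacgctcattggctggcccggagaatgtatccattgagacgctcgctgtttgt
SPRY1: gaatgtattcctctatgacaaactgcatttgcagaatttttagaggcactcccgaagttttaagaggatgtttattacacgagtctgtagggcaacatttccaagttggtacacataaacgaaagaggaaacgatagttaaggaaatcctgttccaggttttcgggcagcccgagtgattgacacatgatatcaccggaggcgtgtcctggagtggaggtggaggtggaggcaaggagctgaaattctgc
SPRY4: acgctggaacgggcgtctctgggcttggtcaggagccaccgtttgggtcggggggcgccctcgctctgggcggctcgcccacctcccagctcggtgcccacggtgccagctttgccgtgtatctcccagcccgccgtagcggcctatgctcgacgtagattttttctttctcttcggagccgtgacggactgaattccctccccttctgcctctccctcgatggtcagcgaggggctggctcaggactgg

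The ETS core CCGGAA was present before 2 of the 10 starts, the upstream start of SPRY2 shown above and the downstream start of SPRY1 (chr4:123398136-123398385), whereas 14.5% of all 35116 promoter stretches of the same length held it. The cyclic AMP response element TGACGTCA (1.6% of all stretches) and the AP-1 site TGANTCA (6.6%) had no match before any of the 10 starts, searched on both strands. The GC box GGGCGG stood before 4 of the 10 starts, 1 each of SPRY1, SPRY2, SPRY4 and SPRED1, against 42.6% of all stretches, and it did not overlap the ETS matches. The content of G and C in the 4 stretches shown was 70.4% for SPRY2, 57.2% for DUSP6, 45.6% for SPRY1 and 65.6% for SPRY4, against a median of 58.0% over all stretches. These matches describe letters in these windows and say nothing of binding.

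The probes used for the same 4 genes map, in the hg19 coordinates of the array files, to chr13:80910622-80910681 for SPRY2, chr12:89742144-89742203 for DUSP6, chr4:124324494-124324553 for SPRY1 and chr5:141690571-141690630 for SPRY4. All 10 genes passed the filter on dim probes, and the probe used for each was well above background in both channels on all 4 arrays. The ratios of each gene on each array are shown in the plot of log2 ratios by array. A log2 ratio is that of KO over Ctrl on 1 array, and a log2 signal is the normalized brightness of 1 channel, which is compared only within a probe.

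**Figure D1:**
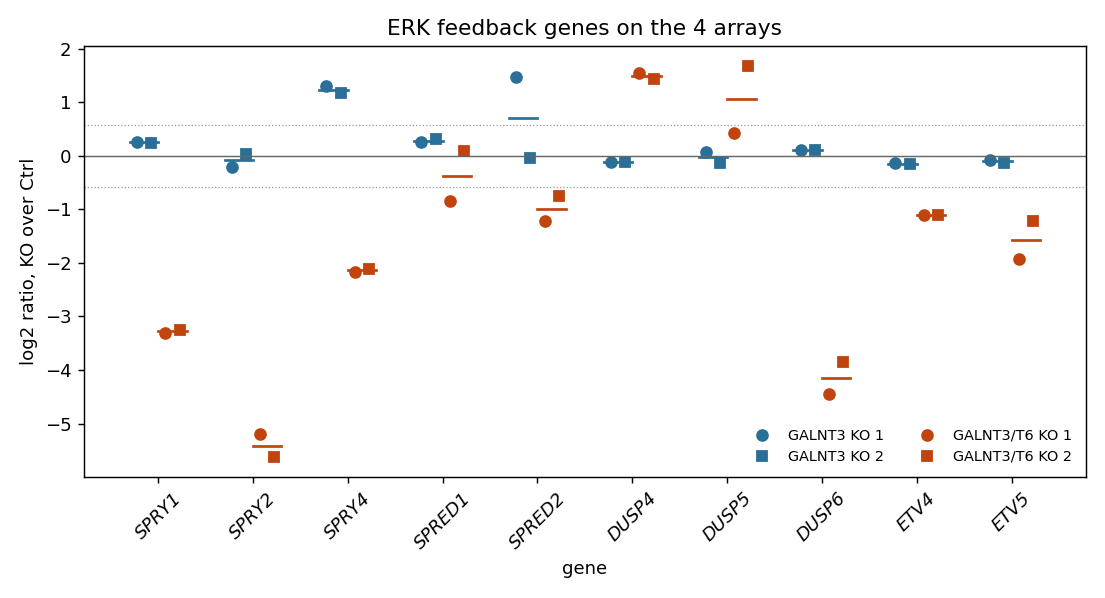
Log2 ratio of KO over Ctrl (vertical axis) for each of the 10 genes (horizontal axis) on the 2 GALNT3 KO arrays (blue) and the 2 GALNT3/T6-labelled arrays (orange). Circles are replicate 1, squares replicate 2, short lines the mean of both, and dotted lines mark 1.5-fold. The blue points lie near 0 except for SPRY4 and 1 array of SPRED2, and the orange points run from -5.63 for SPRY2 to 1.69 for DUSP5.

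On the GALNT3/T6-labelled arrays, 7 of the 10 genes were lower than Ctrl by at least 1.5-fold on both arrays (SPRY1, SPRY2, SPRY4, SPRED2, DUSP6, ETV4 and ETV5), and DUSP4 was higher by as much on both. Over all 27187 genes with a value on every array, 13.7% were lower and 11.6% were higher by this measure. SPRED1 and DUSP5 passed it on 1 array each. As this contrast chose the genes, nothing is read from the difference between the counts. The median log2 ratio of the 10 genes was -1.34, and that of all genes tested was 0.03.

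SPRY2, a Sprouty protein that binds adaptors such as GRB2 and the ubiquitin ligase CBL, gave log2 ratios of -5.19 and -5.63 on the GALNT3/T6-labelled arrays. On the GALNT3 KO arrays the ratios were -0.20 and 0.04. Its Ctrl signal was 13.61 and 14.09 on the GALNT3 KO arrays and 14.08 and 14.10 on the others. The KO signal was 13.41 and 14.12 in the GALNT3 KO clones and 8.89 and 8.47 in the GALNT3/T6-labelled clones. The Ctrl signal therefore spanned 0.48 over the 4 arrays and the KO signal 5.65, and both values of the second group lay far below all the others. The mean was 42.6-fold below Ctrl (mean log2 ratio -5.41, SD 0.31, n = 2), the lowest of all genes tested, with C8orf4 next at -5.38.

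SPRY1 is the Sprouty gene best known for restraining growth factor signalling in the developing kidney. It gave log2 ratios of -3.31 and -3.24 on the GALNT3/T6-labelled arrays, a mean 9.69-fold below Ctrl (SD 0.05 on the log2 scale, n = 2), and of 0.26 and 0.24 on the GALNT3 KO arrays. The Ctrl signal ran from 12.71 to 13.13. The KO signal was 13.40 and 13.08 in GALNT3 KO and 9.40 and 9.48 in the second group. The groups did not overlap, and the arrays of a group lay close to each other.

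SPRY4, a Sprouty protein that inhibits receptor-driven RAS activation, was the only one of the 10 genes past 1.5-fold in opposite directions on both arrays of each group. Its log2 ratios were 1.31 and 1.17 on the GALNT3 KO arrays. On the GALNT3/T6-labelled arrays they were -2.16 and -2.11, a mean 4.40-fold below Ctrl (SD 0.03 on the log2 scale, n = 2). The Ctrl signal was 11.25, 10.95, 10.80 and 10.88 in the same order of arrays. Against it the KO signal was 12.56 and 12.12 in GALNT3 KO and 8.64 and 8.77 in the second group, so that both GALNT3 KO clones were above and both of the others below every Ctrl value.

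DUSP6, a cytoplasmic phosphatase specific for ERK, gave log2 ratios of -4.45 and -3.85 on the GALNT3/T6-labelled arrays, a mean 17.7-fold below Ctrl (SD 0.42 on the log2 scale, n = 2). Both GALNT3 KO arrays gave 0.11 and 0.10. The Ctrl signal lay between 14.71 and 15.00, and the KO signal was 15.11 and 14.88 in GALNT3 KO against 10.27 and 10.91 in the second group. Of all genes tested, DUSP6 stood at rank 31 from the lowest ratio on the GALNT3/T6-labelled arrays, SPRY1 at rank 113 and SPRY4 at rank 454.

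The plot of both channels shows which channel carried these values. For SPRY1, SPRY2, SPRY4 and DUSP6 the Ctrl points stay within 0.29 to 0.48 of each other over the 4 arrays, and the low points are those of the KO channel in the second group.

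**Figure D2:**
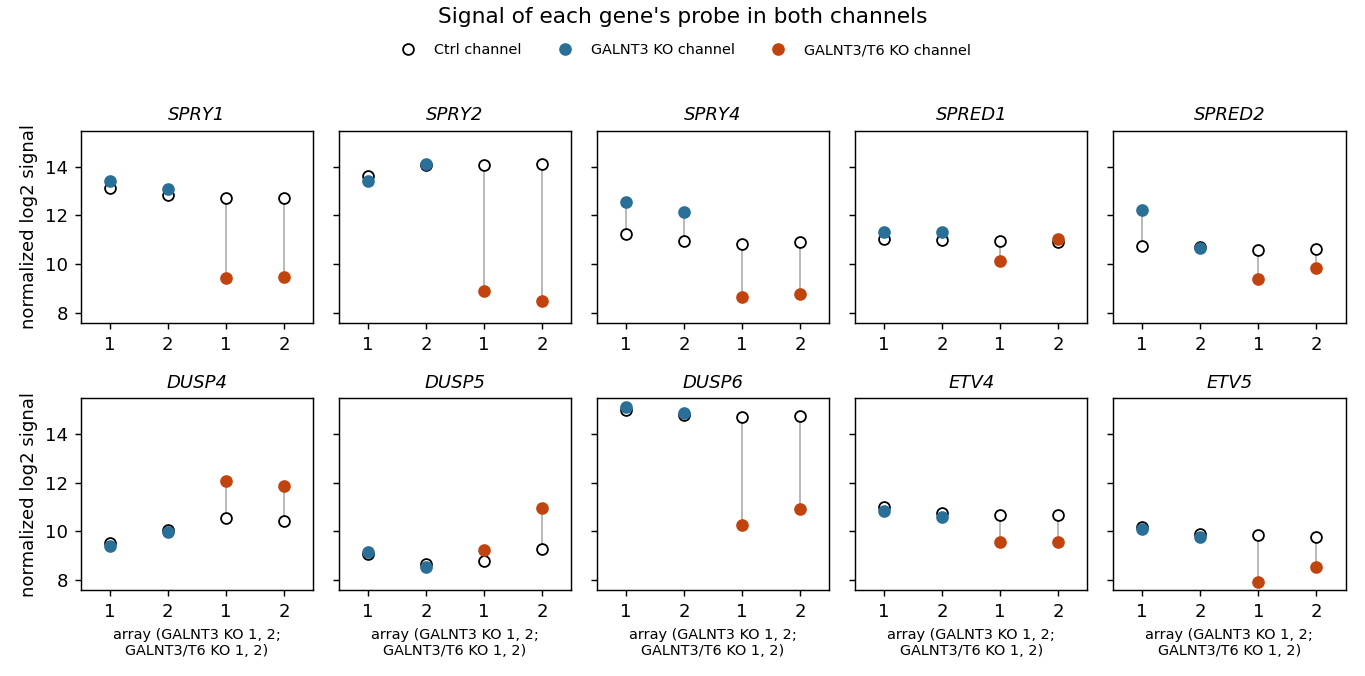
Normalized log2 signal (vertical axis) of the Ctrl channel (open circles) and the KO channel (filled, blue for GALNT3 KO and orange for GALNT3/T6 KO) of the probe used for each gene, on the 4 arrays (horizontal axis), with a line joining the channels of an array. The KO signal of SPRY2 lies at 8.89 and 8.47 in the second group while Ctrl stays between 13.61 and 14.10, and that of DUSP4 lies at 12.08 and 11.87.

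SPRED1 and SPRED2 are Sprouty-related membrane proteins, and SPRED1 brings the RAS inhibitor neurofibromin to the membrane. SPRED1 gave log2 ratios of 0.26 and 0.31 on the GALNT3 KO arrays and of -0.84 and 0.10 on the GALNT3/T6-labelled arrays. Its second probe gave 0.04 and 0.02, then -0.45 and 0.00. Both probes thus placed replicate 1 of the second group below replicate 2. The gap of 0.94 between these arrays was matched or passed by 3.76% of all genes, and without replicate 1 the mean turned from -0.37 to 0.10, so that no direction can be given for SPRED1.

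SPRED2 gave log2 ratios of 1.47 and -0.04 on the GALNT3 KO arrays and of -1.22 and -0.76 on the GALNT3/T6-labelled arrays. The Ctrl signal was steady, from 10.59 to 10.75, while the KO signal was 12.22 and 10.64 in the GALNT3 KO clones. A gap between the GALNT3 KO arrays as wide as that of SPRED2 was seen in 0.0515% of all genes. Its second probe, which was dim, did not share the pattern. It gave -0.21 and -0.29 in GALNT3 KO and -0.22 and -0.34 in the second group, and was well above background on 3 arrays in the Ctrl channel and on 1 in the KO channel. The mean of both probes in the second group was -0.63, against -0.99 with the brighter probe alone.

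DUSP4 and DUSP5, which are nuclear phosphatases that act on ERK, had positive mean ratios in the second group, unlike DUSP6. DUSP4 gave log2 ratios of 1.54 and 1.44 on the GALNT3/T6-labelled arrays, a mean 2.80-fold above Ctrl (SD 0.07 on the log2 scale, n = 2), and of -0.11 on both GALNT3 KO arrays. The Ctrl signal of DUSP4 was itself uneven, at 9.52 and 10.06 on the GALNT3 KO arrays and at 10.54 and 10.44 on the others, while the KO signal was 9.41 and 9.96 in GALNT3 KO and 12.08 and 11.87 in the second group. This span of 1.02 in Ctrl was the widest among the 10 genes.

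DUSP5 gave log2 ratios of 0.42 and 1.69 on the GALNT3/T6-labelled arrays and of 0.08 and -0.13 on the GALNT3 KO arrays. Only 1.14% of all genes had a gap between the arrays of the second group as wide as its 1.27. The KO signal was 9.21 in replicate 1 and 10.95 in replicate 2, against 8.79 and 9.26 in Ctrl, so that the higher mean (1.05, SD 0.90, n = 2) rested on replicate 2. Without replicate 1 the count of genes past 1.5-fold higher was 2 in place of 1, with DUSP5 beside DUSP4.

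ETV4 and ETV5 were each measured by a pair of probes, and all 4 probes were below 0 on both GALNT3/T6-labelled arrays. The brighter probe of ETV4 gave -1.11 and -1.10 there, a mean 2.15-fold below Ctrl, and the other probe gave -1.01 and -0.70. On the GALNT3 KO arrays the ETV4 probes had opposite signs, with -0.14 and -0.16 for the brighter and 0.17 and 0.21 for the other. ETV5 gave -1.93 and -1.21 with the brighter probe and -1.57 and -1.12 with the other in the second group, where the mean of the brighter probe was 2.97-fold below Ctrl (SD 0.51 on the log2 scale, n = 2). In GALNT3 KO the probes of ETV5 gave -0.07 and -0.13, and -0.39 and -0.33.

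In order of the ratio on the GALNT3/T6-labelled arrays, SPRY2 was lowest, followed by DUSP6, SPRY1, SPRY4, ETV5, ETV4, SPRED2, SPRED1, DUSP5 and DUSP4. The arrays of the first 4 genes did not overlap with those of their neighbours in this order. SPRED2 overlapped with ETV5, ETV4 and SPRED1, and DUSP5 with DUSP4, so these were not separated beyond the spread between arrays, whereas both arrays of ETV5 lay below both of ETV4. Set against the GALNT3 KO arrays, both arrays of the second group lay below both GALNT3 KO arrays for 8 of the 10 genes, and above them for DUSP4 and DUSP5. Over all genes this held for 31.0% below and 30.0% above. The place of the 10 genes among all genes is shown in the histograms of mean ratios.

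**Figure D3:**
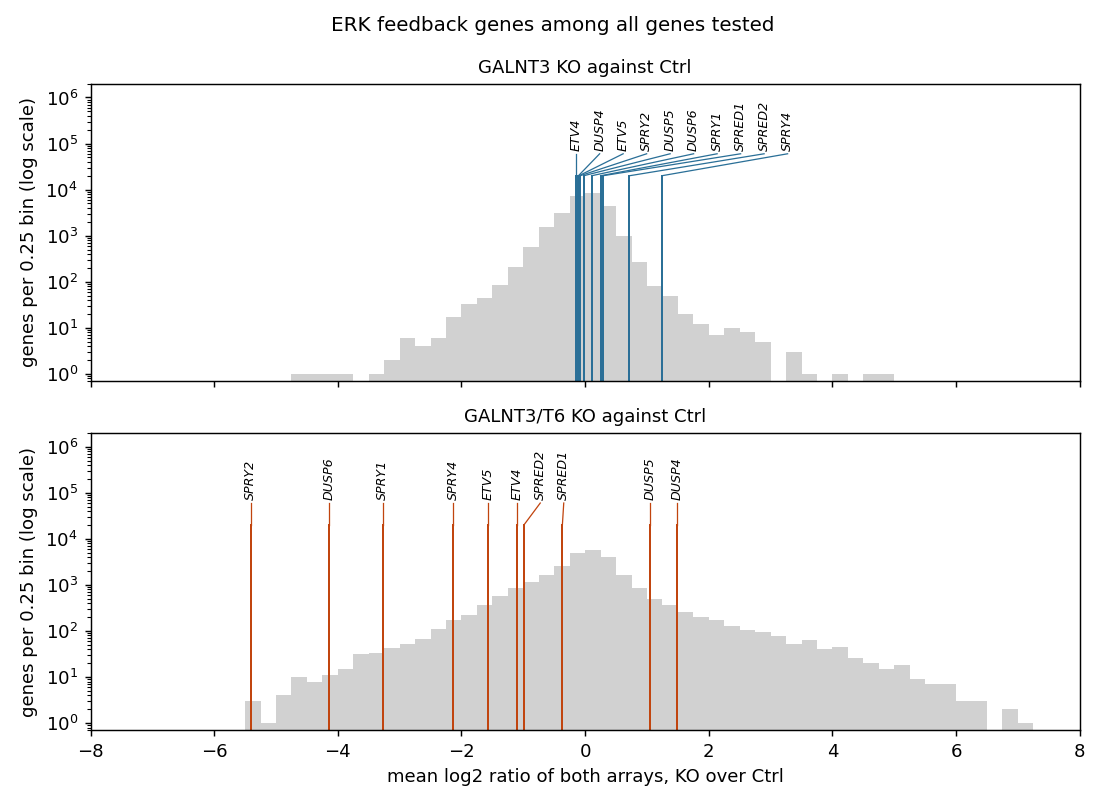
Number of genes (vertical axis, log scale) by mean log2 ratio of KO over Ctrl in bins of 0.25 (horizontal axis), for GALNT3 KO (top) and the GALNT3/T6-labelled arrays (bottom), over the 27225 genes tested. Lines mark the 10 ERK feedback genes. In the upper panel 8 of them stand between -0.15 and 0.29, and in the lower panel they spread from -5.41 to 1.49.

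The GALNT3 KO arrays were not used to choose the genes, and were tested for a difference between the GALNT3 KO clones and Ctrl. Loss of GALNT3 cannot be told apart there from other differences between selected clones. SPRY4 was higher than Ctrl in GALNT3 KO, by a mean log2 ratio of 1.24 (SE 0.08, 2.36-fold, limma adjusted p = 0.0113, higher on 2 of 2 arrays). It was the 1 gene of the 10 that passed the test, and none passed in the lower direction. Over all genes tested 4.69% were called higher and 6.34% lower in this comparison. At an unadjusted p under 0.05 stood SPRY4 and SPRY1, the latter with a mean log2 ratio of 0.25 (SE 0.08, limma adjusted p = 0.102). The call of SPRY4 was lost without either GALNT3 KO array, at adjusted p = 0.282 without replicate 1 and 0.376 without replicate 2, within a range of 7.89e-05 to 0.376 over the 12 alternatives run.

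The other 8 genes did not pass the test in GALNT3 KO. Their mean log2 ratios were 0.72 for SPRED2 (SE 0.37), 0.29 for SPRED1 (SE 0.23), 0.10 for DUSP6 (SE 0.16), -0.02 for DUSP5 (SE 0.31), -0.08 for SPRY2 (SE 0.14), -0.10 for ETV5 (SE 0.18), -0.11 for DUSP4 (SE 0.08) and -0.15 for ETV4 (SE 0.08), with limma adjusted p between 0.234 and 0.960. SPRED1 passed at 0.0461 when the fit used the GALNT3 KO arrays alone, and its adjusted p ran from 0.046 to 0.823 under the 12 alternatives. The median over the 10 genes was 0.04, against 0.02 for all genes tested. These SEs rest on a spread shared by all 4 arrays and are not the spread between the 2 GALNT3 KO clones. For SPRED1 the SD between arrays was 0.036 in GALNT3 KO and 0.66 in the second group. For SPRED2 the order was the reverse, at 1.07 and 0.33. The few arrays and this shared spread limit how small a change could be detected.

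The genes whose 4 log2 ratios lay closest to those of SPRY2, by Euclidean distance over the 4 arrays, were C8orf4 (now TCIM), ANO3, UNC5B, PRAME and MGAT3, at distances of 0.31, 0.42, 0.86, 1.00 and 1.12. C8orf4 gave -0.02 and 0.26 on the GALNT3 KO arrays and -5.25 and -5.52 on the GALNT3/T6-labelled arrays. MGAT3, which adds the bisecting N-acetylglucosamine of N-glycans, gave -0.56 and -0.67, then -4.66 and -5.04. UNC5B, a netrin receptor, gave -0.25 and -0.70, then -5.01 and -5.22. C8orf4, PRAME and MGAT3 have a second probe each, and with the mean of both probes their ratios in the second group were -3.94, -3.10 and -2.45. None of the other 9 ERK feedback genes was among these 5.

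The rest of the ERK pathway was read from a list of 101 genes in 6 roles, of which 100 were measured. On the GALNT3/T6-labelled arrays 41 of these were higher and 25 lower than Ctrl (limma, adjusted p at most 0.05), where 24.8% and 23.1% of all genes tested were. Their median log2 ratio was 0.24. In GALNT3 KO, where 4.69% of all genes tested were called higher and 6.34% lower, 13 were higher and 7 lower, with a median of -0.04. Leaving out either GALNT3 KO array took both of these last counts to 0, and leaving out either GALNT3/T6-labelled array raised them to 24 and 22. Between the groups 28 genes were higher and 14 lower on the GALNT3/T6-labelled arrays than in GALNT3 KO, where 11.8% of all genes tested were called in each direction. Without GALNT3 KO replicate 1 these were 8 and 5, without replicate 2 of that group 9 and 5, and without GALNT3/T6 KO replicate 2 the lower count was 25.

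Among receptors and ligands, 13 of 21 measured genes were higher on the GALNT3/T6-labelled arrays and 3 were lower. FGF1, a fibroblast growth factor, rose by a mean log2 ratio of 3.46 (SE 0.09, adjusted p = 9.75e-05), with 3.36 and 3.57 on the arrays. Its other probes gave smaller means, and the mean over its 3 probes was 2.03. FGF5, another ligand of the family, rose by 2.02 (adjusted p = 0.000266), and the platelet-derived growth factor receptor PDGFRB by 3.44 (adjusted p = 0.000411). The ephrin receptors EPHA2 and EPHA4 rose by 1.46 and 0.82 (adjusted p = 0.00411 and 0.00878). The 3 that fell, named after their values were seen, were PDGFRA (-1.94), FGFR3 (-0.87) and FGFR4 (-0.77). In GALNT3 KO the calls were FGFR2, which was higher by 0.70 (adjusted p = 0.0234), and IGF1R, which was lower by a log2 ratio of -1.39 (adjusted p = 0.0467). With the mean of all probes these ratios were 0.37 for FGFR2 and -0.45 for IGF1R, and the call of IGF1R was lost. The other probes of IGF1R gave means of -0.06 and 0.11 in GALNT3 KO.

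Of 20 adaptors and RAS regulators, 8 were higher and 5 lower on the GALNT3/T6-labelled arrays. The RAS-related GTPase MRAS was lower by a log2 ratio of -1.81 (adjusted p = 0.000306) and the RAS GTPase-activating protein DAB2IP by -1.47 (adjusted p = 0.00174). NRAS was higher by 1.40 (adjusted p = 0.0017). The adaptor SHC1 was higher in GALNT3 KO, by 0.80 (adjusted p = 0.0384). PTPN11 (-1.05) and GRB2 (-0.63), named after their values were seen, were also lower in the second group.

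Of 15 kinases of the cascade and their scaffolds, 3 were higher and 3 lower on the GALNT3/T6-labelled arrays, and 9 did not pass. The scaffold IQGAP1 and the ERK-activated kinase RPS6KA2 were both higher by 1.71 (adjusted p = 0.0127 and 0.000634), although IQGAP1 lost its call without either GALNT3 KO array. KSR1, a scaffold of RAF, was higher by 0.75 (adjusted p = 0.0045), a call that was lost with the mean of its 4 probes, at a log2 ratio of 0.17. ARAF was lower by a log2 ratio of -0.59 (adjusted p = 0.00526), a call that was not kept with the scanner's own ratio. MAP2K2, which encodes MEK2, was lower by a log2 ratio of -0.56 and was named after its value was seen. In GALNT3 KO, ARAF was lower by -0.45 (adjusted p = 0.0422) and SHOC2, a scaffold that promotes RAF activation, by -0.77 (adjusted p = 0.0387).

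Among 11 measured inhibitors of the pathway other than the 10 genes, 6 were higher and 1 lower on the GALNT3/T6-labelled arrays. ERRFI1, an inhibitor of the epidermal growth factor receptor, gave -1.27 and -1.21 on the GALNT3 KO arrays (adjusted p = 0.014) and 2.29 and 2.00 on the others (adjusted p = 0.000284). A second, dim probe of ERRFI1 gave 0.01 and -0.11, then 0.94 and 1.02. PEA15, which holds ERK in the cytoplasm, rose by 1.89 (adjusted p = 0.000233). Of the other genes that rose, the adaptor SHB (0.74) and the scaffold CNKSR1 (0.37), named after their values were seen, are not inhibitors by their best known roles. The FGF receptor antagonist IL17RD, also known as SEF, was the 1 that fell, with -2.68 and -1.24 on the arrays (adjusted p = 0.0125), and this call was lost without either GALNT3 KO array. FLRT3, a membrane protein that binds FGF receptors and can promote their signalling, fell in GALNT3 KO by a log2 ratio of -1.85 (adjusted p = 0.0171).

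Of 10 other dual-specificity phosphatases, 4 were higher and 3 lower on the GALNT3/T6-labelled arrays. DUSP1, an immediate early phosphatase that acts mostly on p38 and JNK, gave 3.49 and 3.19 there (adjusted p = 0.000179) and -0.09 and -0.43 on the GALNT3 KO arrays. DUSP14 rose by 0.93 (adjusted p = 0.00131). DUSP16, which acts on JNK and p38, fell by a log2 ratio of -2.01 (adjusted p = 0.00145), and its 4 probes averaged -0.92. DUSP2, a nuclear phosphatase of ERK and p38, was higher in GALNT3 KO, with 1.24 and 1.27 (adjusted p = 0.00886), and lower in the second group, with -0.63 and -0.67 (adjusted p = 0.00347). The other DUSP2 probe gave 0.77 and 0.76, then -0.10 and -0.11.

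ERK-responsive transcription factors and targets moved in both directions, with 7 of 23 higher and 10 lower on the GALNT3/T6-labelled arrays and a median log2 ratio of -0.24. PHLDA1, a pleckstrin homology-like domain protein induced by growth factors, gave 6.10 and 6.50 there (adjusted p = 9.22e-05) and 1.06 and 1.04 on the GALNT3 KO arrays (adjusted p = 0.0235). Its other 3 probes gave means of 2.19, 2.19 and 2.73 in the second group, where the mean over all 4 was 3.35. In GALNT3 KO they gave 0.10, 0.29 and -0.08, and with the mean of all 4 probes, 0.34, the call there was lost. The immediate early gene EGR1 went in opposite directions, with 2.37 and 2.25 on the GALNT3 KO arrays (adjusted p = 0.00865) and -2.95 and -2.48 on the others (adjusted p = 0.00032). Its relative EGR3 gave 1.37 and 1.19 (adjusted p = 0.0117), then -0.81 and -0.97 (adjusted p = 0.00238). ETS2 was higher in the second group by 2.12 (adjusted p = 0.00284). The cell cycle gene CCND1, which encodes cyclin D1, did not pass in either group, with means of 0.61 and 0.44 (adjusted p = 0.0848 and 0.0949). Its other probes gave means of 0.44 and -0.65 in the second group, where the mean over all 3 probes was 0.08.

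The calls of the pathway genes by role are drawn in the plot of mean ratios by role.

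**Figure D4:**
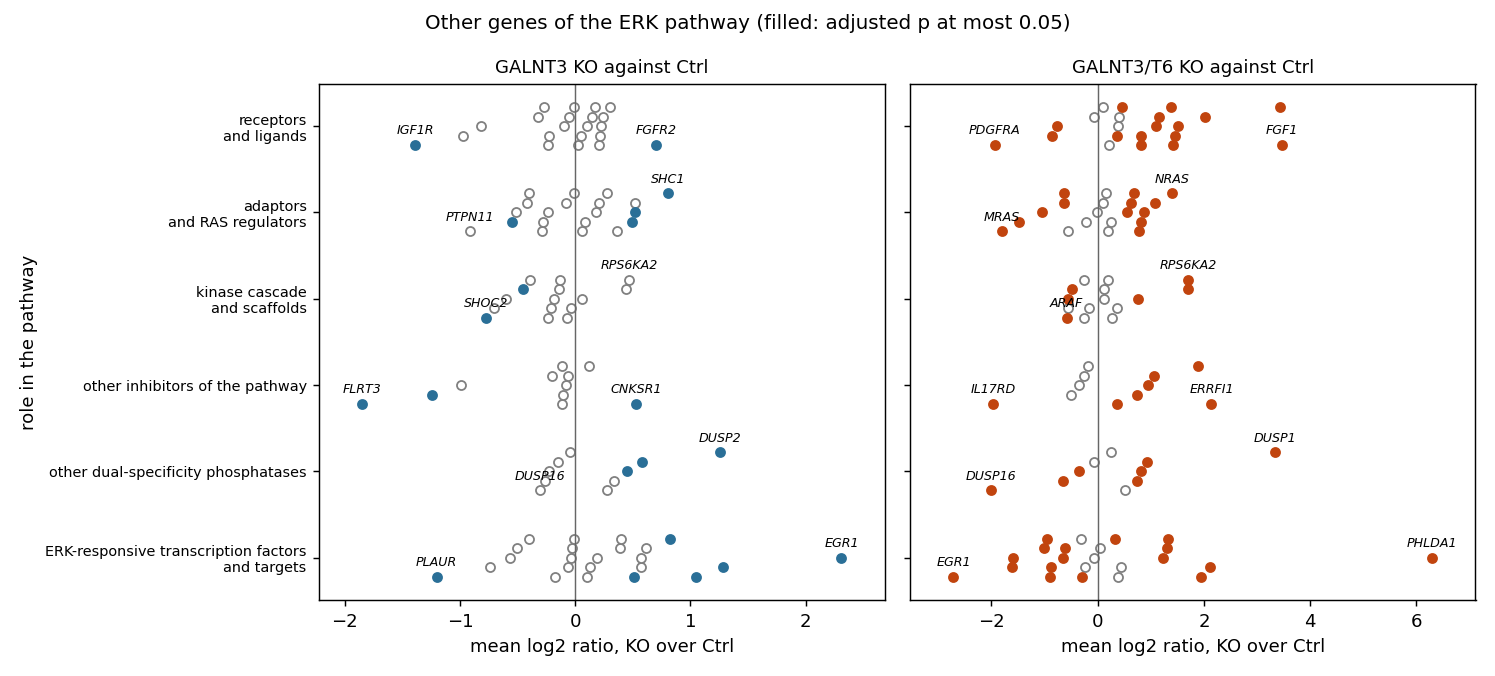
Mean log2 ratio of KO over Ctrl (horizontal axis) of the 100 other ERK pathway genes measured, grouped by role (vertical axis), in GALNT3 KO (left, blue) and on the GALNT3/T6-labelled arrays (right, orange). Filled points passed limma's test at an adjusted p of at most 0.05, open points did not, and the lowest and highest gene of each role is named. The right panel runs from -2.72 for EGR1 to 6.30 for PHLDA1, and the left from -1.85 for FLRT3 to 2.31 for EGR1.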

How the data were processed

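RNA of 2 GALNT3 KO and 2 GALNT3/T6 KO A2780s clones was measured on 4 Agilent arrays, each against Ctrl. The deposited scanner files hold, per the file headers, spot intensity in both channels extracted with Agilent Feature Extraction 10.7.3.1 (the submitters' processing notes give 8.5.1.1), probe positions on hg19 and flags that mark spots above background or as outliers. The deposited value table holds log10 ratios, which differed from the scanner's LogRatio by at most 0.005 at any spot. Groups were taken from the labels. No fold change or p-value of the authors was used.

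In R 4.3.3 with limma 3.58.1, the mean signal was corrected by normexp (offset 50) on the median background and normalized by loess within each array. Control spots and outlier-flagged spots had weight 0. The brightest probe stood for a gene and was kept where, in GALNT3 KO or in GALNT3/T6 KO, it stood well above background in Cy3 or Cy5 on both arrays. lmFit and eBayes were run on all genes and all 4 arrays with a mean for each group, and p-values were adjusted by Benjamini-Hochberg, with calls at 0.05. Per-channel signals were taken after Aquantile scaling. The fit was tested on simulated data. The number of arrays limits the precision. Without dye swaps, a dye bias of a probe enters all 4 ratios.

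The 10 genes and the lists were chosen with earlier results of these data known. Named from the pathway list were PHLDA1, CCND1, EPHA2 and EPHA4 and, in each role, up to 3 genes with the largest ratios on the GALNT3/T6-labelled arrays and up to 2 in GALNT3 KO, among those called with 1 sign on both arrays. A few listed genes are counted but not reported here by name. The 5 genes closest to SPRY2 were named by Euclidean distance. Alternatives covered background correction, the scanner's ratio, the deposited table, median centring, the mean of all probes, no filter, a replicate block, leaving out each array and fits on 1 group.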

Additional observations from a re-analysis of the deposited data

Results flagged for a closer look

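SPRY4 was past 1.5-fold higher on both GALNT3 KO arrays and past 1.5-fold lower on both GALNT3/T6-labelled arrays, with a difference between the group means of -3.38 on the log2 scale. The difference was not tested for SPRY4, since the GALNT3/T6-labelled arrays chose the 10 genes.

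Among the named genes of the pathway list, 5 were past 1.5-fold in 1 direction on both GALNT3 KO arrays and in the other on both GALNT3/T6-labelled arrays. For each, the difference between the groups was put through limma's test. Since the genes were picked by opposite ratios on these same arrays, a small p-value was nearly set in advance and adds no support. EGR1 was lower on the GALNT3/T6-labelled arrays by a log2 difference of -5.03 (adjusted p = 0.000461), EGR3 by -2.17 (adjusted p = 0.00113) and DUSP2 by -1.90 (adjusted p = 0.000983). PDGFRB was higher by 4.26 (adjusted p = 0.00122) and ERRFI1 by 3.38 (adjusted p = 0.000535). In the KO channel of the GALNT3 KO arrays, PDGFRB was well above background on 1 of 2 arrays, and it was not called in that group (limma adjusted p = 0.0626). The second probe of ERRFI1 gave 0.01 and -0.11 in GALNT3 KO, and that of DUSP2 gave -0.10 and -0.11 on the GALNT3/T6-labelled arrays. These second probes were thus not past 1.5-fold in opposite directions.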

How the results depend on the processing

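On the GALNT3/T6-labelled arrays, 9 of the 10 genes kept the sign of their mean under every alternative run, and SPRED1 ranged from -0.84 to 0.10 when 1 array was left out. The count past 1.5-fold on both arrays was 6 to 8 lower, and 1 to 2 higher when 1 array was left out. In GALNT3 KO, some means changed sign without passing the test. With the scanner's ratio and with the deposited table these were SPRY2 (0.26 and 0.26), DUSP4 (0.12 and 0.12), ETV4 (0.18 and 0.18) and ETV5 (0.11 and 0.11). With median centring SPRY1 was at -0.038, with no background correction DUSP5 at 0.016, and with the mean of all probes ETV4 at 0.021. When 1 array was left out SPRY2 ranged from -0.20 to 0.036, SPRED2 from -0.039 to 1.47 and DUSP5 from -0.13 to 0.080. Over both arrays SPRED2 had a mean of 0.72, so its change of sign reflects arrays that disagreed. The mean of SPRY4 ranged from 1.01 to 1.31.

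The calls in GALNT3 KO depended on the fit. The 1 higher call among the 10 genes ranged from 0 to 2 when 1 array was left out, and was 2 with only the arrays of that group. The counts of 13 higher and 7 lower pathway genes were 4 and 3 with the scanner's ratio and with the deposited table, 6 higher with median centring, 24 and 22 with only the arrays of that group, and ranged from 0 to 24 and from 0 to 22 when 1 array was left out. On the GALNT3/T6-labelled arrays they stayed between 33 and 47 higher and between 17 and 28 lower. Between the groups, leaving out 1 array gave 8 to 39 higher and 5 to 25 lower. Where 1 array was left in a group, it was assumed to vary like the other group. The cause of these changes was not tested.

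The labels give both groups the replicate numbers 1 and 2 without saying that they pair the clones, and the deviations of same-numbered arrays from their group means correlated at -0.239 over genes. With the replicate block, none of the 10 genes was called higher in GALNT3 KO (0, with SPRY4 at adjusted p = 0.0621, within 7.89e-05 to 0.376 over its alternatives), and the pathway counts were 1 higher and 0 lower in GALNT3 KO, 38 and 23 on the GALNT3/T6-labelled arrays and 23 and 11 between the groups. With the numbers crossed as a replicate block, chosen after seeing the data, the counts were 1 for the 10 genes, 14 higher and 14 lower for the pathway genes in GALNT3 KO, 43 and 25 on the GALNT3/T6-labelled arrays, and 30 and 15 between the groups.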
